A study of Mus musculus with 12 samples.

Results

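Glutathione S-transferases are the enzymes described here, and 9 of their genes were followed through RNA profiles of disseminated mammary carcinoma cells recovered from mouse lungs. The genes were taken by symbol from the deposited expression table, which lists 54146 genes, and comprise Gsta3 and Gsta4 (alpha class), Gstm1 and Gstm2 (mu class), Gstp1 (pi class), Gsto1 (omega class), Gstt1 (theta class), and the membrane-bound Mgst1 and Mgst3. All 9 were found, and all 9 belonged to the 13002 genes that passed the filter on low values, which asked that 3 or more of the 12 libraries reach a TPM of 1. TPM is a relative transcript abundance that scales each library to the same total and corrects for transcript length, so that levels can be set side by side between genes but carry no information on sequencing depth, which is unknown here.

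The cells were D2A1, a mouse mammary carcinoma line, carrying a doxycycline-inducible histone H2B fused to green fluorescent protein and stained before injection with CellVue Claret, a membrane dye that is diluted when cells divide. They were injected into the tail vein of female mice aged 6 to 8 weeks and sorted from the lungs 12 to 14 days later, as GFP-positive cells that had kept the dye (dormant) or lost it (growing), in aliquots of 50 cells. Hosts were labelled WT, for which the study names floxed Tgfbr2 control mice where it shows these data and WT mice in its sequencing methods, or Tgfbr2 KO, in which Cre recombinase under the Lysozyme 2 promoter deletes the floxed TGF-β type II receptor in myeloid cells. The 4 groups, dormant and growing cells from each kind of host, held 3 libraries each. The tumour cells themselves were of one line in every group, so Tgfbr2 in these libraries does not check the host label. The study describes as many mice per group as there are libraries and calls the replicates biological, but no label ties a library to a mouse, and p-values measure the spread between these libraries. The strain of the hosts is not given in the sources used here.

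Glutathione S-transferases join the tripeptide glutathione to reactive, fat-loving compounds, which makes them soluble enough to be pumped out of the cell, and several of them also reduce peroxides. Many of their genes are driven by the transcription factor NRF2 through antioxidant response elements, and tumour cells often use these enzymes to tolerate drugs and oxidants. In normal lung, airway club cells and alveolar type 2 cells are known for carrying much of the tissue's xenobiotic metabolism.

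Library names put all WT libraries in batch 1 and all Tgfbr2 KO libraries in batch 2. Host and batch therefore cannot be told apart in any comparison between hosts, whereas comparisons of dormant with growing cells lie within a batch. Between 11325 and 15315 genes had a value above 0 in a library, and the mean Pearson correlation of log2(TPM + 1) between libraries of a group was lowest among dormant WT libraries (0.687), followed by dormant KO (0.872), growing KO (0.917) and growing WT (0.950). Of 7 genes listed for the carcinoma line, Krt8, Krt18 and Vim were present in every library, the lowest value of the 3 being 52.08 TPM. Epcam and Cdh1 did not exceed 5.34 TPM anywhere. Krt7 was at 0 and Krt19 at no more than 7.02 TPM in WT libraries. Dormant KO libraries held 29.6 to 61.46 and 252.04 to 418.3 TPM of them, in that order. Which cells these transcripts came from was not tested. Genes of lung and blood cells were present to differing degrees, most of all in dormant KO libraries, as detailed beside the results. Since the libraries are bulk aliquots, fewer cells of a type and less RNA per cell cannot be told apart.

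The sequences before the start of 3 genes are printed here to set genes that differed between hosts in opposite directions side by side: Gsta3 and Gstt1, which were at or near 0 in most WT libraries and higher in dormant KO cells, and Mgst3, which was lower. Each is the 250 bases before the start that RefSeq annotates on GRCm38.p6, read 5′ to 3′ on the gene's own strand, and lies at chr1:21240335-21240584 (plus strand) for Gsta3, chr10:75797732-75797981 (minus) for Gstt1 and chr1:167393842-167394091 (minus) for Mgst3. Capitals mark matches to the antioxidant response element core, TGACNNNGC on either strand. The Gsta3 and Mgst3 windows lie outside the span that GENCODE gives these genes, while all 250 bases of the Gstt1 window lie inside the GENCODE gene and in none of its exons, because GENCODE places a start further upstream.
Gsta3: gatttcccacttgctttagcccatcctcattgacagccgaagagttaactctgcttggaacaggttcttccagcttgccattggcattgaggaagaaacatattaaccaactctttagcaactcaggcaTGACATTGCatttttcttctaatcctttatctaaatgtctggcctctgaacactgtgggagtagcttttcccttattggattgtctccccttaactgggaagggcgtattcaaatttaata
Gstt1: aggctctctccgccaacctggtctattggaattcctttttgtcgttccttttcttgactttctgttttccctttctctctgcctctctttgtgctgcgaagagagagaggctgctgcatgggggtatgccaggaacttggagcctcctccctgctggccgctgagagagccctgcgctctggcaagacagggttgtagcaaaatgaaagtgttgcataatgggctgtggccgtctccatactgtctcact
Mgst3: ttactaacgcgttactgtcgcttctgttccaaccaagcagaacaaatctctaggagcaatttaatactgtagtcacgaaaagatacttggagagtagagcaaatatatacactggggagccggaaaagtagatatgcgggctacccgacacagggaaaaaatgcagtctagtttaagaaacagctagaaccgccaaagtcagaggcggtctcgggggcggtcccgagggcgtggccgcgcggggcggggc
The table of promoters held 8 of the 9 genes, with 10 start sites between them. The core was found in 2 of those 10 upstream windows: in Gsta3 as TGACATTGC, beginning 121 bases before the start, and in the first of the Mgst1 windows as GCACGGTCA on the opposite strand, beginning 56 bases before the start (window chr6:138140277-138140526, plus strand, of which 211 bases lie in a GENCODE exon of Mgst1). No match stood in these windows of Gstm1, Gstm2, Gstp1, Gsto1, Gstt1, Mgst3 or the second Mgst1 start. Other forms of the element were not searched, and the Gstp1 window holds tgagtcagc, which departs from the core only in the G after TGA. Of the 10 windows, 7 reach into the GENCODE span of their own gene and 6 into its exons, so a missing match says nothing of bases before other annotated starts. Among all 32851 promoters in the table, 10.2% held the core in the same 250 bases, so a match is a description of the letters and no evidence of a bound site.

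Gstp1, the pi-class enzyme that is abundant in many carcinomas, was the most highly expressed of the genes in every group. It is located on chr19:4035407-4037985 (GRCm38, minus strand, ENSMUSG00000060803.5, protein coding). Its values were 1450.50, 1251.52 and 1126.97 TPM among dormant cells of WT hosts and 1334.63, 1150.16 and 1271.25 among those of KO hosts. Growing cells gave 2127.85, 2310.80 and 2458.42 with WT and 2171.12, 2361.66 and 2357.46 with KO hosts. Every dormant library was below every growing library, and hosts overlapped within each state. By mean TPM Gstp1 ranked 116th of all genes in dormant WT, 122nd in dormant KO and 53rd in both kinds of growing cells. Of the 50-base stretches of its transcripts 33.7% also occur in transcripts of other genes, mainly Gstp2, so reads may have been divided between the copies, although Gstp2 reached at most 35.47 TPM.

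**Figure D1:**
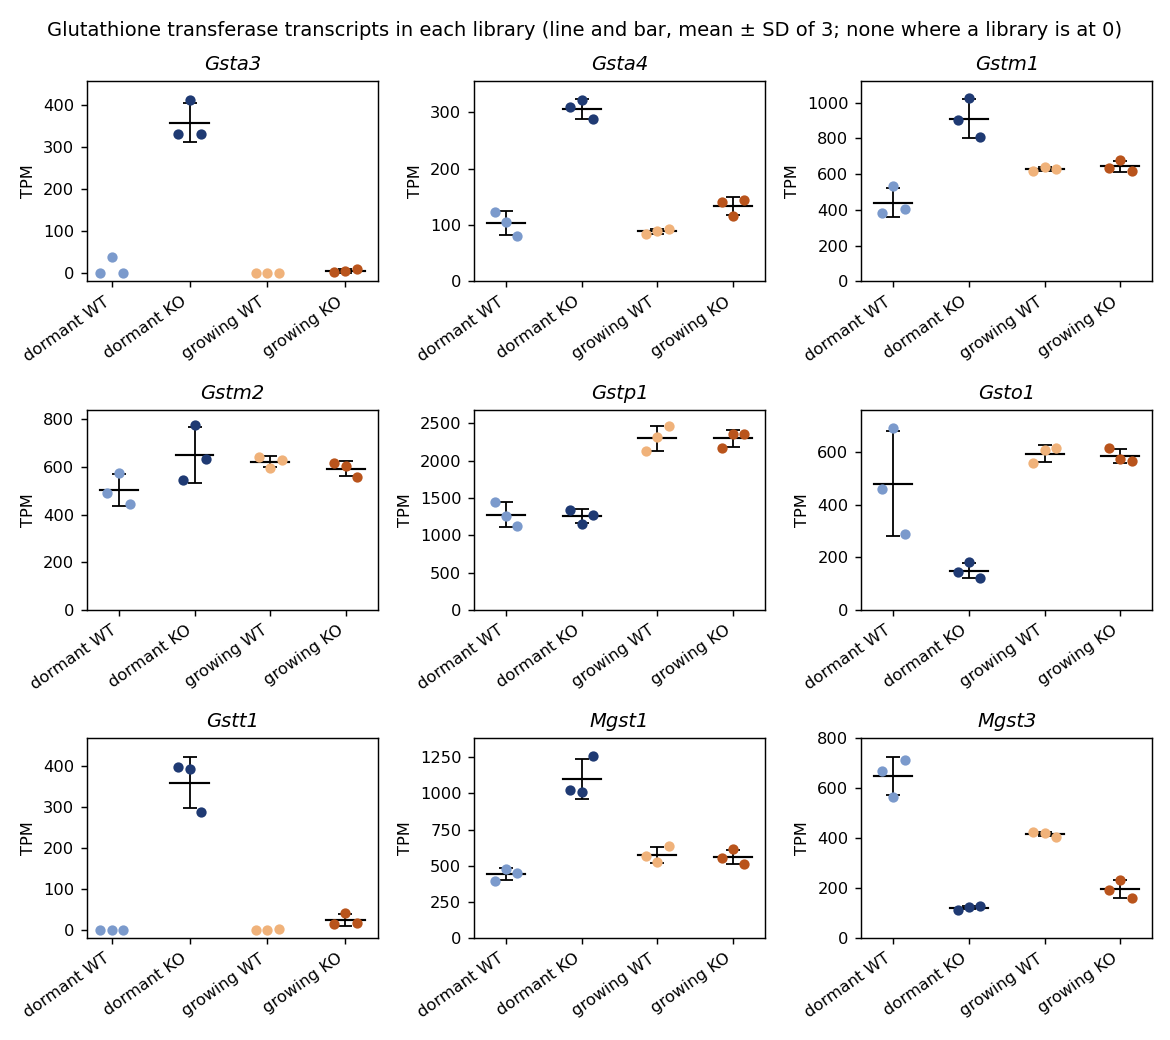
TPM of the 9 glutathione S-transferase genes (1 panel each, y axis TPM on a linear scale) in the 12 libraries, with 1 point per library and a line and bar for the mean ± SD of the 3 libraries of a group (x axis: dormant WT, dormant KO, growing WT, growing KO), left out where a library is at 0. Gsta3 and Gstt1 are at 288.72 TPM or more in the dormant KO libraries and at 0 in most WT libraries, while Gstp1 is at 1126.97 TPM or more everywhere.

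The order of levels within a group was headed by Gstp1 throughout but was otherwise rearranged in dormant KO cells. In dormant WT cells Mgst3, Gstm2, Gsto1, Mgst1 and Gstm1 followed, each overlapping its neighbour, ahead of Gsta4, with Gsta3 and Gstt1 last. Growing cells of both hosts placed Gstm1, Gstm2, Gsto1 and Mgst1 next to Gstp1, then Mgst3, then Gsta4. Dormant KO cells had Gstp1, Mgst1 and Gstm1 as overlapping neighbours at the top, then Gstm2, then Gstt1 and Gsta3, which overlapped, then Gsta4, and Gsto1 and Mgst3 at the bottom, whose ranges also overlapped.

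The first comparison asked how dormant cells differ between hosts. Dormant cells from Tgfbr2 KO mice had more Gsta3, Gsta4, Gstm1, Gstt1 and Mgst1 RNA and less Gsto1 and Mgst3 RNA than dormant cells from WT mice, while Gstm2 and Gstp1 did not pass the test. Thus 5 of the 9 genes were called higher and 2 lower, where a call needs an adjusted p of at most 0.05 (limma on log2(TPM + 1), Benjamini-Hochberg over all 13002 genes, two-sided) and a difference of at least 1 on that scale. Over all genes tested 12.9% were called higher and 9.39% lower. The median difference was 1.05 over the 9 genes and 0.17 over all genes. The 9 genes were chosen with earlier results of these data known, and the median over 19 other transferases was -0.22. The 3 libraries of each group did not overlap in TPM for 7 of the 9 genes, compared with 31.5% of all genes.

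Gstt1, a theta-class enzyme that acts on small halogenated compounds, had 0 TPM in each of the 3 dormant WT libraries, whereas dormant KO libraries read 397.18, 393.94 and 288.72 (359.9 ± 61.7, SD, n = 3). It lies on chr10:75783813-75798584 (minus strand, ENSMUSG00000001663.10). The groups were wholly separate, and the fitted difference was 8.48 ± 0.626 (SE; adjusted p = 3.38e-06), a size that depends on the pseudocount because one group is at 0: it was 11.8 with a pseudocount of 0.1 and 6.17 with 5.

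Gsta3, an alpha-class enzyme known in mice for conjugating activated aflatoxin, showed nearly the same pattern. It was listed as 0, 36.65 and 0 TPM in dormant WT cells against 331.15, 411.16 and 330.25 in dormant KO cells (357.5 ± 46.5). Among the dormant WT libraries replicate 2 alone had a value, which was still far below the lowest dormant KO library. The difference was 6.73 ± 1.23 on the log2(TPM + 1) scale (adjusted p = 0.00193), and from 5.15 to 8.96 between pseudocounts of 5 and 0.1. Leaving out 1 library gave 5.86 to 8.48, the highest without dormant WT replicate 2. The gene spans chr1:21240589-21265661 (plus strand, ENSMUSG00000025934.15), a span that overlaps Gm28836 on the opposite strand. Whether their exons overlap was not examined, and reads of any shared bases could be told apart only if counting used strand.

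Gsta4, the alpha-class enzyme specialised in aldehydes from lipid peroxidation such as hydroxynonenal, was at 123.38, 105.11 and 81.19 TPM in dormant WT cells against 308.48, 321.23 and 287.22 in dormant KO cells. The lowest dormant KO library was above the highest dormant WT library, and the means of 103.2 ± 21.2 and 305.6 ± 17.2 TPM differed 2.96-fold (1.58 ± 0.222 on the log2 scale, adjusted p = 0.000344). Its locus is chr9:78182774-78209349 (plus strand, ENSMUSG00000032348.6).

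The mu-class pair, encoded near each other on chromosome 3 (Gstm1 at chr3:108012255-108017973 and Gstm2 at chr3:107981702-107986453, both on the minus strand), gave 1 call, and the difference between the pair was not tested. Gstm1 measured 384.60, 531.28 and 406.07 TPM in dormant WT cells against 900.80, 1024.35 and 806.46 in dormant KO cells, a 2.07-fold higher mean with no overlap (1.05 ± 0.142, adjusted p = 0.00025). That value lies close to the size limit, and the call was lost at 0.96 without dormant WT replicate 1 and at 0.96 without dormant KO replicate 2. Gstm2 measured 489.68, 576.07 and 444.84 in dormant WT and 544.46, 776.39 and 633.04 in dormant KO cells. These ranges overlapped, with a difference of 0.36 ± 0.150 (adjusted p = 0.105), which came to 0.88 (adjusted p = 0.00169), still under the size limit, after median-ratio scaling and to 0.46 (0.0379) without dormant WT replicate 2. Of the 50-base stretches of Gstm1 transcripts 18.9% and of Gstm2 5.65% recur in other genes, chiefly related copies, so some exchange of reads is possible.

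Mgst1, a membrane enzyme of microsomes and outer mitochondrial membranes that also reduces lipid hydroperoxides, was at 396.46, 480.77 and 453.51 TPM in dormant WT cells against 1024.07, 1012.10 and 1261.41 in dormant KO cells. The groups were well apart (443.6 ± 43.0 and 1099.2 ± 140.6 TPM, 2.48-fold, 1.3 ± 0.138 on the log2 scale, adjusted p = 4.92e-05), and Mgst1 moved from rank 377 to rank 148 of all genes. It maps to chr6:138140316-138156755 (plus strand, ENSMUSG00000008540.11).

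Mgst3, of the same membrane protein family, went the other way. Its values were 667.54, 563.63 and 712.76 TPM in dormant WT cells against 114.50, 125.56 and 129.38 in dormant KO cells. All dormant KO libraries were far below all dormant WT libraries, and the mean was 5.26-fold lower (-2.38 ± 0.177, adjusted p = 3.55e-06). The gene lies on chr1:167371966-167393841 (minus strand, ENSMUSG00000026688.5).

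Gsto1, an omega-class enzyme that reduces dehydroascorbate and glutathione adducts of proteins, with little of the classical conjugation, was the other gene that fell. It measured 461.43, 691.57 and 290.47 TPM in dormant WT, a wide spread, and 145.20, 181.21 and 121.98 in dormant KO cells. The groups did not overlap, and the mean was 3.22-fold lower (-1.61 ± 0.265, adjusted p = 0.000974). Its locus, chr19:47854970-47864790 (plus strand, ENSMUSG00000025068.7), overlaps Cfap43 on the opposite strand. Gstp1 did not separate the hosts in dormant cells (-0.02 ± 0.102, adjusted p = 0.914), but this value depends on scaling: dividing libraries by median-ratio factors gave 0.50 (adjusted p = 0.00712) and moved the median of all genes from 0.17 to 0.50. The same scaling left the 7 calls in place.

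**Figure D2:**
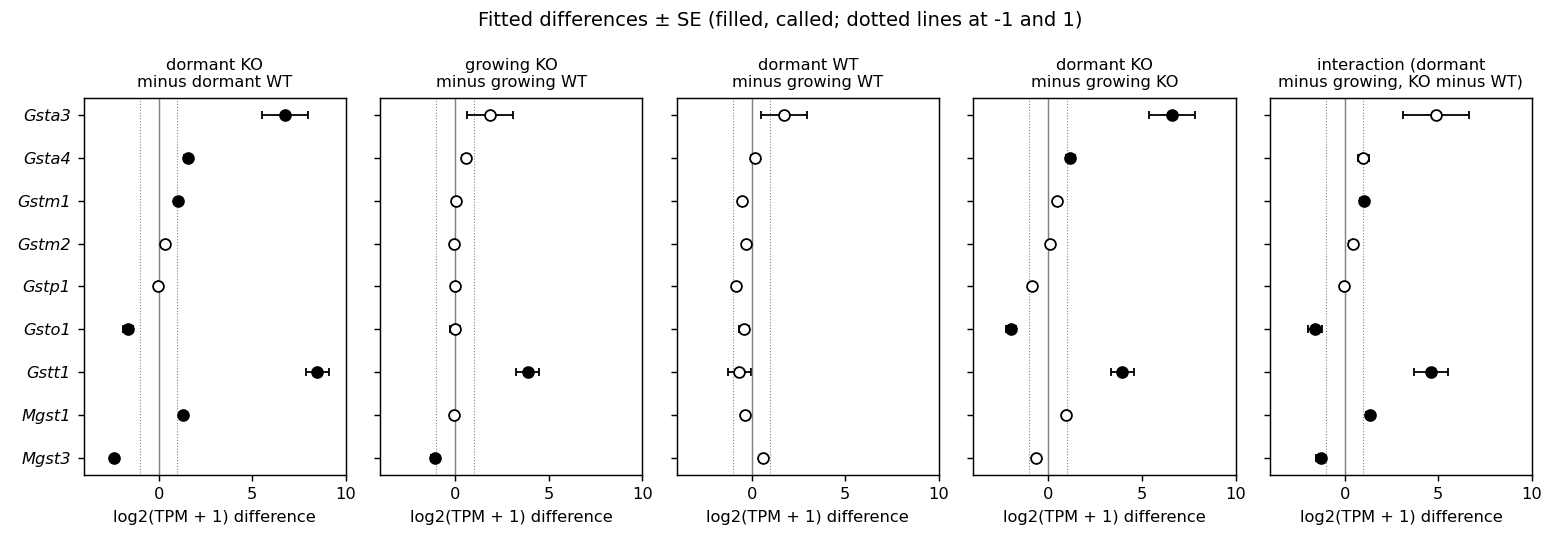
Log2(TPM + 1) difference with its standard error (x axis) for each of the 9 genes (y axis) in the 4 pairwise comparisons and the interaction, filled where called, with dotted lines at the size limit. The dormant KO minus dormant WT panel runs from -2.38 for Mgst3 to 8.48 for Gstt1, and between growing cells of the hosts only Gstt1 and Mgst3 are filled.

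Marker genes of other cells moved with these host differences, and their part in the results was not tested. The summed TPM of 8 alveolar type 2 genes, Sftpc foremost, was 48.6 to 141.2 in dormant WT and 39990.9 to 42386.1 in dormant KO libraries, with 6 of the 8 called higher. Alveolar type 1 genes summed to 254.8 to 381.4 and 1586.4 to 2032.9 (5 of 6 called higher), and club and ciliated genes to 8.47 to 306 and 1893.8 to 2489.3 (4 of 7 tested), with the ciliated gene Foxj1 at 0 throughout. Endothelial genes summed to 11.7 to 76.5 and 768 to 806.7 (7 of 8), fibroblast genes to 55.2 to 192.2 and 1864.9 to 2112.8 (6 of 8), and mesothelial genes to 0 to 55.6 and 544.4 to 846.6 (6 of 6).

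Blood cell markers also summed to more in dormant KO libraries. Macrophage and monocyte genes summed to 966.4 to 1580.8 TPM in dormant WT cells against 3334.5 to 3458.3 in dormant KO cells (2 of 7 tested called higher), neutrophil genes to 326.1 to 914.7 and 4029.5 to 4352.7 (3 of 3), lymphocyte genes to 0.02 to 7.62 and 312.1 to 449.5 (6 of 8), and erythroid genes to 8988.2 to 13030.5 and 50831.2 to 56263.6 (4 of 5). No gene of these lung and blood lists was called lower. The 7 genes of the carcinoma list summed to 957.4 to 1294.9 and 899.7 to 1208, ranges that overlap, but its members were called in both directions, 3 higher and 1 lower. The dormant KO sum includes Krt19, with a mean of 312.5 TPM there and 0.197 in dormant WT libraries. The sums therefore do not show that the genes of the list stayed level. Krt8 fell from 380.95, 187.72 and 183.41 to 52.08, 106.27 and 79.87 TPM (-1.62, adjusted p = 0.00541), and Vim, with means of 684.5 and 392.9 TPM, was lower by an amount under the size limit (-0.80, adjusted p = 0.000536). Called higher were Krt19 (0.59, 0 and 0 against 267.29, 418.30 and 252.04 TPM), Krt7 (5.35) and Epcam (1.68). Krt18 overlapped between the groups (0.09, adjusted p = 0.838).

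**Figure D3:**
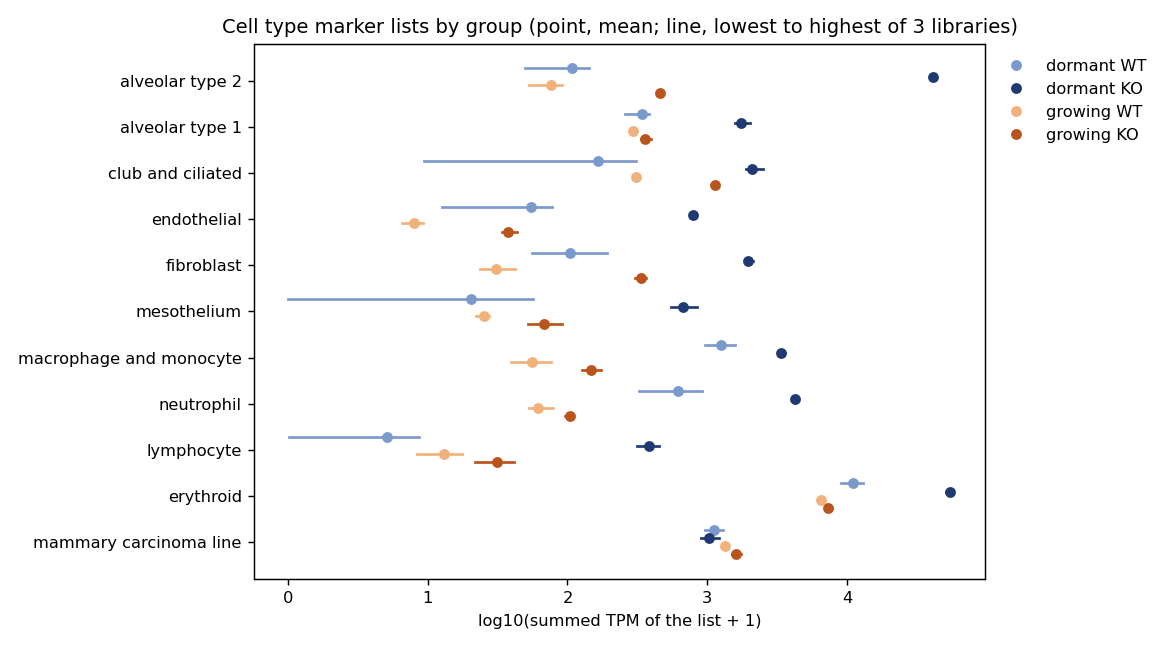
Summed TPM of each marker list (x axis, log10 of the sum + 1) for each list (y axis) and group (colours), with a point at the mean and a line from the lowest to the highest of the 3 libraries. Alveolar type 2 genes reach 39990.9 to 42386.1 TPM in dormant KO libraries against at most 465.8 elsewhere, and the carcinoma list is at 899.7 to 1732.6 in all groups. That list includes Krt19, with a mean of 312.5 TPM in dormant KO and 0.197 in dormant WT libraries.

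The second comparison asked the same of growing cells, where hosts differed in 2 of the 9 genes, Gstt1 upward and Mgst3 downward, as in dormant cells. The remaining 7 were not called. Over all genes 0.715% were called higher and 0.261% lower, the median difference was 0 over the 9 genes and 0.02 over all, and 4 of the 9 genes had separate groups against 23.9% of all genes. Gstt1 was at 0, 0 and 2.88 TPM in growing WT cells against 14.24, 41.96 and 17.43 in growing KO cells, so every KO library was above every WT library (3.87 ± 0.626, adjusted p = 0.0108). Mgst3 was at 423.45, 418.90 and 406.33 in growing WT cells but 192.58, 232.75 and 160.95 in growing KO cells, with no overlap and a 2.13-fold lower mean (-1.10 ± 0.177, adjusted p = 0.0101).

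Both calls in growing cells were lost when certain single libraries were left out. For Gstt1 the adjusted p was 0.0681 without growing WT replicate 1, 0.0601 without growing WT replicate 2 and 0.0707 without growing KO replicate 2. For Mgst3 it was 0.0662, 0.0569 and 0.0574 without growing WT replicates 1, 2 and 3, 0.0543 without growing KO replicate 1 and 0.0527 without growing KO replicate 3. Some marker genes of other cells were called higher in growing KO cells as well, namely 2 of 8 alveolar type 2 genes, 2 of 7 club and ciliated genes, 2 of 8 fibroblast genes, 2 of 6 mesothelial genes and 1 of 7 macrophage and monocyte genes. None were called among 6 alveolar type 1, 8 endothelial, 3 neutrophil, 8 lymphocyte and 5 erythroid genes, and none of any list was called lower. Alveolar type 2 genes summed to 52 to 90.1 TPM in growing WT cells against 457.8 to 465.8 in growing KO cells, club and ciliated genes to 296.9 to 322.3 and 1130.9 to 1155.9, and fibroblast genes to 22.8 to 41.4 and 305.3 to 365. The part of those cells in the 2 calls was not tested.

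Of the genes not called, Gsta4 had the lowest p-value in limma's test between hosts in growing cells. Its values were 84.34, 89.40 and 92.74 TPM in growing WT cells against 140.81, 115.06 and 144.84 in growing KO cells, which do not overlap, with a difference of 0.58 ± 0.222 (adjusted p = 0.488). Gsta3 was at 0 in the 3 growing WT libraries and at 0.31, 2.55 and 9.38 in growing KO cells, also separate but low (1.86 ± 1.23, adjusted p = 0.989). Gstm1 (619.88, 641.55 and 626.15 against 635.16, 676.72 and 619.08), Gstm2 (640.45, 595.70 and 631.09 against 617.47, 603.71 and 556.68), Gsto1 (558.75, 610.71 and 616.36 against 615.97, 574.69 and 565.89) and Mgst1 (566.61, 527.40 and 634.46 against 556.64, 615.18 and 512.89) all overlapped between hosts. Their differences were between -0.07 and 0.03, and Gstp1 differed by 0 ± 0.102.

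The third comparison set dormant against growing cells in WT hosts, and 0 of the 9 genes were called in it by limma. At an unadjusted p under 0.05 there were 4, namely Gstp1, Gstm1, Mgst1 and Mgst3, while 23.9% of all genes lay under that value. Over all genes 1.85% were called higher and 5.67% lower in dormant WT cells, and the median difference was -0.38 over the 9 genes and -0.35 over all. Separate groups were seen for 5 of the 9 genes and for 26.6% of all genes. Of the marker lists, macrophage and monocyte genes had 4 of 7 called higher in dormant WT cells and neutrophil genes 2 of 3, the latter summing to 326.1 to 914.7 TPM in dormant and 52 to 78 in growing WT libraries, and the part of those cells in the values of the 9 genes was not tested. Other lists gave single calls, 1 of 6 alveolar type 1 genes (Rtkn2, -2.42) and 1 of 8 lymphocyte genes (Cd79a, -2.67) being lower, and of 8 fibroblast genes 1 higher (Inmt, 2.93) and 1 lower (Dcn, -2.98). Gstp1 was lower in dormant cells by an amount under the size limit (0.555 of the growing mean, -0.85 ± 0.102, adjusted p = 0.000513), and so was Gstm1 (0.700 of the growing mean, -0.53 ± 0.142, adjusted p = 0.0424). Mgst3 had a mean of 648 ± 76.5 TPM in dormant and 416.2 ± 8.87 in growing WT cells, 1.56-fold (0.63 ± 0.177, adjusted p = 0.0501).

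Within Tgfbr2 KO hosts, which share a batch, the states differed in more of the genes. Gsta3, Gsta4 and Gstt1 were called higher and Gsto1 lower in dormant cells. Over all genes 8.31% were called higher and 9.48% lower, the median difference was 0.49 over the 9 genes and -0.32 over all, and 8 of the 9 genes had separate groups, compared with 44.7% of all genes. This comparison uses the same dormant KO libraries as the comparison between hosts, so the values of both stand side by side and are not independent of each other.

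Gsta3, at 330.25 to 411.16 TPM in dormant KO cells and 0.31 to 9.38 in growing KO cells, differed by 6.61 ± 1.23 (adjusted p = 0.00271). Gstt1 had a mean of 359.9 ± 61.7 TPM in dormant and 24.5 ± 15.2 in growing KO cells, 14.7-fold (3.96 ± 0.626, adjusted p = 0.000982). Gsta4 differed 2.29-fold, with means of 305.6 ± 17.2 and 133.6 ± 16.2 TPM (1.19 ± 0.222, adjusted p = 0.00271). For each of these 3 genes the lowest dormant library was above the highest growing library.

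Gsto1 had a 3.92-fold lower mean in dormant than in growing KO cells (149.5 ± 29.8 and 585.5 ± 26.7 TPM, -1.98 ± 0.265, adjusted p = 0.000334). A further 4 genes passed the adjusted p but not the size limit. They were Mgst1 at 1.96-fold (0.96 ± 0.138, adjusted p = 0.000521), Gstm1 at 1.41-fold (0.49 ± 0.142, adjusted p = 0.0301), Mgst3 at a 1.59-fold lower mean (-0.65 ± 0.177, adjusted p = 0.0235) and Gstp1. Mgst1 lay so near the limit that it was called under median-ratio scaling (1.56), quantile normalization (1.14) and without dormant KO replicate 1 (1.01), dormant KO replicate 2 (1.02) or growing KO replicate 2 (1.03), and Gstm1 was called under median-ratio scaling (1.09). Gstp1 was at 0.545 of the growing mean (-0.88 ± 0.102, adjusted p = 0.000136), but at -0.28 (adjusted p = 0.119) after median-ratio scaling, which moved the median of all genes from -0.32 to 0.09. Mgst3 came to -0.06 under that scaling, and to -0.21 under quantile normalization. Marker genes of lung and blood cells were called higher in dormant KO cells as well, namely 6 of 8 alveolar type 2, 4 of 6 alveolar type 1, 8 of 8 endothelial, 4 of 8 fibroblast, 5 of 6 mesothelial, 5 of 7 macrophage and monocyte, 3 of 3 neutrophil, 6 of 8 lymphocyte and 4 of 5 erythroid genes, while club and ciliated genes gave 1 higher and 1 lower of 7. Alveolar type 2 genes summed to 457.8 to 465.8 TPM in growing KO libraries and to 39990.9 to 42386.1 in dormant ones. Of 7 genes listed for the carcinoma line 3 were called lower in dormant KO cells, Krt8 (mean of 79.4 TPM against 235.9, -1.58), Krt18 (191.2 against 491.2, -1.39) and Vim (392.9 against 848.5, -1.11), and Krt19 (4.51) and Krt7 (4.48) were called higher. The part of these shifts in the values of the 9 genes was not tested.

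Whether the host difference itself depended on cell state was tested as an interaction, the dormant host difference minus the growing one. It was called for 5 of the 9 genes: higher for Gstt1 (4.61 ± 0.886, adjusted p = 0.00677), Mgst1 (1.34 ± 0.195, adjusted p = 0.00166) and Gstm1 (1.02 ± 0.201, adjusted p = 0.00764), and lower for Gsto1 (-1.59 ± 0.375, adjusted p = 0.0196) and Mgst3 (-1.28 ± 0.250, adjusted p = 0.00756). Over all genes 6.18% were called higher and 3.91% lower, with a median of 1 over the 9 genes and 0.16 over all. Gsta3 (4.87 ± 1.74, adjusted p = 0.108) and Gsta4 (1 ± 0.314, adjusted p = 0.0697) were not called, although both were called in dormant cells and not in growing cells. Without dormant WT replicate 2, the library in which Gsta3 had a value, the Gsta3 interaction was called at 6.61 (adjusted p = 0.00228), as it was at 4.42 with a pseudocount of 5, and that of Gsta4 1.02 (adjusted p = 0.0459). Gsta4 was also called at 1.14 without dormant WT replicate 1, at 1.51 under median-ratio scaling and at 1.32 under quantile normalization.

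Of the 5 called interactions, Mgst1 kept its call in all 20 alternative settings. Gstm1 dropped under the size limit without dormant WT replicate 1 (0.93), dormant WT replicate 3 (0.97), dormant KO replicate 2 (0.93) or growing KO replicate 3 (0.99). Gsto1 missed the adjusted p without dormant KO replicate 3 (0.0523), growing WT replicate 1 (0.0550) or growing KO replicate 1 (0.0513), and under median-ratio scaling (-1.07, adjusted p = 0.115). Mgst3 missed it under median-ratio scaling (-0.76, adjusted p = 0.0782), and Gstt1 with a pseudocount of 0.1 (0.0603) and with array weights (0.061).

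The TPM of the 9 genes were also added up within each library. Summed TPM was 3973.59, 4236.6 and 3515.81 for dormant cells of WT hosts and 5100.47, 5396.1 and 5129.71 for those of KO hosts. For growing cells it was 5021.33, 5194.46 and 5468.43 with WT hosts, 4944.3, 5224.28 and 4944.6 with KO hosts. The dormant WT libraries were the lowest, and the other groups overlapped. This depends on scaling: after median-ratio scaling the mean sum was 3382.4 in dormant WT, 6429.9 in dormant KO, 4264.1 in growing WT and 4115.3 in growing KO libraries. These sums are between 0.352% and 0.547% of all TPM. Gstp1 made up less of the sum in dormant cells (32.7% with WT and 24.1% with KO hosts) than in growing cells (43.9% and 45.6%).

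The make-up of that total was different in dormant KO cells. Mgst1 made up 21.1% of it there and 11% to 11.4% in the other groups, and Gstm1 17.5% against 11.3% to 12.8%. Gsta3 and Gstt1 added 6.85% and 6.91%. Gsto1 contributed 2.86% against 11.4% to 12.1% elsewhere, and Mgst3 2.36% where dormant WT cells had 16.8% and growing cells 7.98% (WT) and 3.87% (KO).

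**Figure D4:**
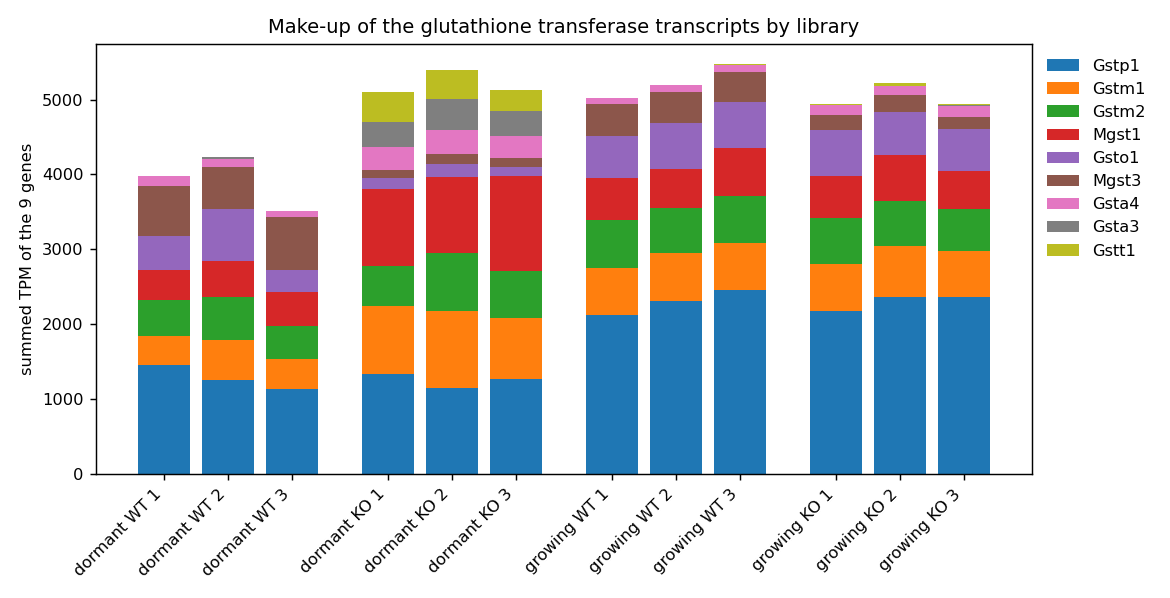
Summed TPM of the 9 genes in each of the 12 libraries (y axis, stacked bars from 0), with each gene's part in a colour of its own, by group and replicate (x axis). The 3 dormant WT bars are the lowest, at 3515.81 to 4236.6 TPM, and dormant KO bars carry wide Mgst1 and Gstm1 segments and narrow Mgst3 and Gsto1 segments.

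Of 19 other transferase genes tested, 3 were called higher and 3 lower in dormant KO than in dormant WT cells, beside 12.9% and 9.39% of all genes, and their median was -0.22 beside 0.17 over all genes. Gstt2, another theta-class enzyme, was at 0.03, 0 and 0 TPM in dormant WT cells against 35.28, 66.07 and 58.20 in dormant KO cells (5.70, adjusted p = 0.000151). Gstm6 was at 0, 0.06 and 0 and at 12.27, 13.33 and 9.76 (3.64, adjusted p = 0.00276, but 0.113 with array weights, which give noisier libraries less weight). Both were listed at or near 0 in dormant WT libraries. Mgst2, which belongs to the same membrane family as Mgst3, moved downward with it, from 630.78, 369.00 and 657.28 to 169.33, 120.95 and 208.04 TPM (-1.72, adjusted p = 0.000606). Gsta2 had 23.01, 81.48 and 69.10 TPM in dormant WT cells against 0.30, 0 and 9.62 in dormant KO cells (-4.43, adjusted p = 0.00449, but 0.0765 with array weights), the opposite direction to Gsta3 and Gsta4 of its class.

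Between states in KO hosts 2 of these 19 transferases were called higher and 5 lower in dormant cells, beside 8.31% and 9.48% of all genes. Gstt2 (4.01) and Ltc4s, the synthase of leukotriene C (2.94, adjusted p = 0.0179, not called without dormant KO replicate 1 or 3 or growing KO replicate 2, nor with a pseudocount of 0.1), were higher, and Mgst2 was among the lower ones (-2.27, adjusted p = 0.000134), with 949.80, 647.59 and 785.65 TPM in growing KO cells. Gstm7, a mu-class enzyme, was lower as well, with 0.09, 0 and 0.16 TPM in dormant against 32.41, 4.03 and 8.49 in growing KO cells (-3.43, adjusted p = 0.0248), a call lost in 6 of 15 alternative settings, 5 of them leaving out 1 library (adjusted p of 0.0555 to 0.0988). In WT hosts Ltc4s alone was called, at 41.34, 81.02 and 54.96 TPM in dormant and 0, 3.08 and 0 in growing cells (5.18, adjusted p = 0.00202, but 0.0527 with array weights). Ltc4s is made mainly by myeloid cells, and macrophage and monocyte genes summed to 966.4 to 1580.8 TPM in dormant and 38.4 to 75.1 in growing WT libraries, and their part in this call was not tested. No other transferase was called between hosts in growing cells.

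Among genes that make and recycle glutathione, 2 of 13 tested were called higher and 3 lower between hosts in dormant cells, again beside 12.9% and 9.39% of all genes, with a median of 0.28 beside 0.17. Gclm, the regulatory subunit of the enzyme that starts glutathione synthesis, was at 89.36, 48.54 and 89.10 TPM in dormant WT cells against 34.48, 9.25 and 6.56 in dormant KO cells (-2.40, adjusted p = 0.015). That call was lost in 4 alternative settings, among them without dormant KO replicate 2 (adjusted p = 0.0553) and without dormant KO replicate 3 (0.0664). Lancl1, a glutathione-binding protein, was at 86.37, 62.69 and 132.40 and at 23.47, 18.27 and 30.10 (-1.89, adjusted p = 0.00414). Both were separate between groups. The genes called higher, Oplah (1.97) and Slc7a11 (1.64), stayed at or under 5.55 TPM. The call of Oplah was lost in 3 of 14 and that of Slc7a11 in 8 of 11 alternative settings in which the gene was tested. Outside dormant KO cells Oplah reached a TPM of 1 only in growing WT replicate 2 (1.44) and Slc7a11 only in growing KO replicate 1 (1.99). Both therefore passed the filter only with the dormant KO libraries. Dpep1, a dipeptidase that breaks down glutathione conjugates, was lower in dormant cells of both hosts, with 0, 0 and 0 TPM in dormant WT cells against 12.05, 21.35 and 11.64 in growing WT cells (-3.95 in WT and -3.53 in KO hosts). Between states in KO hosts 1 of the 13 was called higher and 3 lower in dormant cells, beside 8.31% and 9.48% of all genes. Oplah, which recycles oxoproline, was the higher one (1.99, adjusted p = 0.00538), by a difference under the size limit with a pseudocount of 5. Gss, glutathione synthetase, was at 11.22, 1.79 and 16.69 TPM in dormant against 59.44, 37.86 and 37.18 in growing KO cells (-2.41, adjusted p = 0.0235). The call of Gss was lost in 6 of 15 alternative settings, including median-ratio scaling (adjusted p = 0.0878) and leaving out dormant KO replicate 2 (0.0638) or any growing KO library (0.0547 to 0.0890).

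Glutathione peroxidases and glutaredoxins, which spend glutathione on peroxides and disulfides, gave 3 higher and 2 lower of 13 in dormant KO against dormant WT cells beside 12.9% and 9.39% of all genes (median 0.32 beside 0.17 over all genes). Gpx7 had no value above 0 among dormant WT cells, against 52.20, 68.07 and 49.79 TPM among dormant KO cells (5.84, adjusted p = 2.92e-05), so that, like Gstt1, it had no value in the former. Gpx3, a secreted peroxidase, differed by 3.31, but lost its call in 9 of 15 alternative settings. Its size came to 1.73 (adjusted p = 0.0505) without dormant WT replicate 3 and to 4.44 without dormant WT replicate 2. Glrx5, a mitochondrial glutaredoxin of iron-sulfur cluster assembly, was lower (-2.37), and so was Esd, which splits formyl-glutathione (-1.29, adjusted p = 0.00112), the latter losing its call in 2 alternative settings. Between states in KO hosts 2 of the 13 were called higher and 2 lower in dormant cells, beside 8.31% and 9.48% of all genes. Gpx7 was higher (3.19, adjusted p = 0.00214), with 4.38, 2.17 and 13.34 TPM in growing KO cells, and Esd was lower (-1.91, adjusted p = 0.000117). Glrx, the cytosolic glutaredoxin, was at 137.37, 164.48 and 170.95 in dormant against 69.85, 52.44 and 85.38 in growing KO cells (1.2, adjusted p = 0.0283), and its call was lost without any 1 dormant KO library or growing KO replicate 1 or 2 (adjusted p of 0.0588 to 0.112). Glrx3, a glutaredoxin of iron handling, was at 70.82, 85.28 and 47.37 against 134.44, 151.3 and 135.93 (-1.08, adjusted p = 0.0199), a call lost in 6 of 15 alternative settings, including median-ratio scaling (adjusted p = 0.28), leaving out dormant KO replicate 3 (0.0843) and leaving out any growing KO library (0.0531 to 0.0722).

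Of 21 NRF2 pathway genes tested, 4 were called lower and 1 higher between hosts in dormant cells (KO minus WT), beside 9.39% and 12.9% of all genes, with a median of -0.39 beside 0.17 over all genes. Nqo1, a classical NRF2 target, was at 22.06, 68.84 and 40.06 TPM in dormant WT cells against 0.75, 5.22 and 0 in dormant KO cells (-4.19, adjusted p = 0.000555), and at 76.75, 92.81 and 80.01 in growing KO cells, from which the dormant KO cells differed by -5.24 (adjusted p = 0.000175). G6pdx, which supplies NADPH, differed by -1.99 and -2.35 in the same comparisons. The first of these calls was lost in 5 alternative settings, including median-ratio scaling (adjusted p = 0.0504) and leaving out dormant KO replicate 1 (0.0754) or 3 (0.0693). Nfe2l2, which encodes NRF2 itself, was at 150.04, 271.02 and 114.56 TPM in dormant WT cells against 54.86, 146.98 and 70.60 in dormant KO cells, ranges that overlapped. By mean TPM Hmox1 of the same list went the other way, with 30.31, 0 and 0.58 against 28.02, 68.08 and 35.21, ranges that also overlapped. Within the KO hosts 0 of the 21 genes were called higher and 4 lower, beside 8.31% and 9.48% of all genes. Within the WT hosts Cbr3, a carbonyl reductase, was the one gene called, at 0 in every dormant library and at 3.15, 1.93 and 7.04 TPM in growing cells (-2.20, adjusted p = 0.0365), a call lost in 11 of 15 alternative settings (highest adjusted p = 0.257), among them leaving out dormant WT replicate 2 or 3 or any growing WT library.

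Of 6 tested genes of the list of conjugate exporters, which also holds the uptake carrier Slc10a6, 1 was called higher and 1 lower between hosts in dormant cells, beside 12.9% and 9.39% of all genes. Abcc1, a pump of glutathione conjugates, was at 12.20, 13.47 and 12.94 TPM in dormant WT cells against 0.98, 0.88 and 0.11 in dormant KO cells (-3.11, adjusted p = 0.00177, but 0.0596 with array weights). Slc10a6, which takes up sulfated steroids, was the one called higher, at 0 in dormant WT and at 2.14, 7.19 and 21.20 in dormant KO cells (3.05, adjusted p = 0.0065, but 0.111 with array weights). Elsewhere it reached a TPM of 1 only in growing KO replicates 1 (2.98) and 3 (1.94), so it passed the filter only with the dormant KO libraries. None of the 6 was called in the other pairwise comparisons.

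Oxidising and related xenobiotic enzymes showed the most calls of the lists, 11 higher and 4 lower of 21 tested between hosts in dormant cells, beside 12.9% and 9.39% of all genes, with a median of 2.67 beside 0.17 over all genes. Several of these enzymes are abundant in lung epithelium, and alveolar type 2 genes summed to 48.6 to 141.2 TPM in dormant WT against 39990.9 to 42386.1 in dormant KO libraries and club and ciliated genes to 8.47 to 306 and 1893.8 to 2489.3, whose part in these calls was not tested. Aldh1a1, which makes retinoic acid, was at 0.82, 0 and 0 TPM in dormant WT cells against 152.61, 158.93 and 105.07 in dormant KO cells (6.82, adjusted p = 0.000714). Sult1a1, a phenol sulfotransferase, was at 0 in dormant WT and 57, 51.73 and 52.04 in dormant KO cells (5.77, adjusted p = 0.000528, but 0.0581 with array weights), and it was higher there than in growing KO cells too (4.87, adjusted p = 0.00208). Elsewhere it reached a TPM of 1 only in growing WT replicate 3 (5.89) and growing KO replicate 2 (5.44). It thus passed the filter only with the dormant KO libraries. Cyp2b10, a cytochrome P450, was at 72.57, 47.44 and 23.21 TPM in dormant KO cells against at most 0.75 in growing KO cells (5.19, adjusted p = 3.19e-05). It reached a TPM of 1 in dormant KO libraries only and passed the filter through them alone. Without any 1 of those libraries it was not tested. Cyp2f2, a cytochrome P450 of club cells, was the only one called between hosts in growing cells, at 0.50, 0.11 and 0.22 TPM in WT and 7.93, 24.42 and 15.99 in KO hosts (3.63, adjusted p = 0.0111), a call lost without any 1 growing WT library or without growing KO replicate 2 or 3 (adjusted p of 0.0522 to 0.0707).

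The 2 enzymes of that list with the largest differences below 0 exceeded any of the 9 transferases in size downward. Akr1c18, a hydroxysteroid dehydrogenase that inactivates progesterone, was at 2579.94, 2029.12 and 1549.03 TPM in dormant WT cells against 12.78, 11.63 and 22.87 in dormant KO cells (-6.97, adjusted p = 1.59e-08). Aldh3a1, an aldehyde dehydrogenase, was at 286.40, 342.54 and 179.51 and at 15.24, 8.16 and 0.02 (-5.61, adjusted p = 0.000302). Between states in KO hosts, where 8 of the 21 were called higher and 5 lower in dormant cells beside 8.31% and 9.48% of all genes, Akr1c18 and Aldh3a1 were lower as well (-6.49, adjusted p = 2.91e-08, and -5.00, adjusted p = 0.000881). In WT hosts Cyp2s1, a cytochrome P450, was the one enzyme of the list called, at 0, 0.02 and 0 TPM in dormant against 2.35, 1.97 and 1.43 in growing cells (-1.52, adjusted p = 0.0399). Its call was lost in 11 of 15 alternative settings (highest adjusted p = 0.611), among them leaving out dormant WT replicate 2 or 3 or any growing WT library. In dormant WT cells Akr1c18 was thus above Gstp1, and in dormant KO cells below all of the 9 genes.

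**Figure D5:**
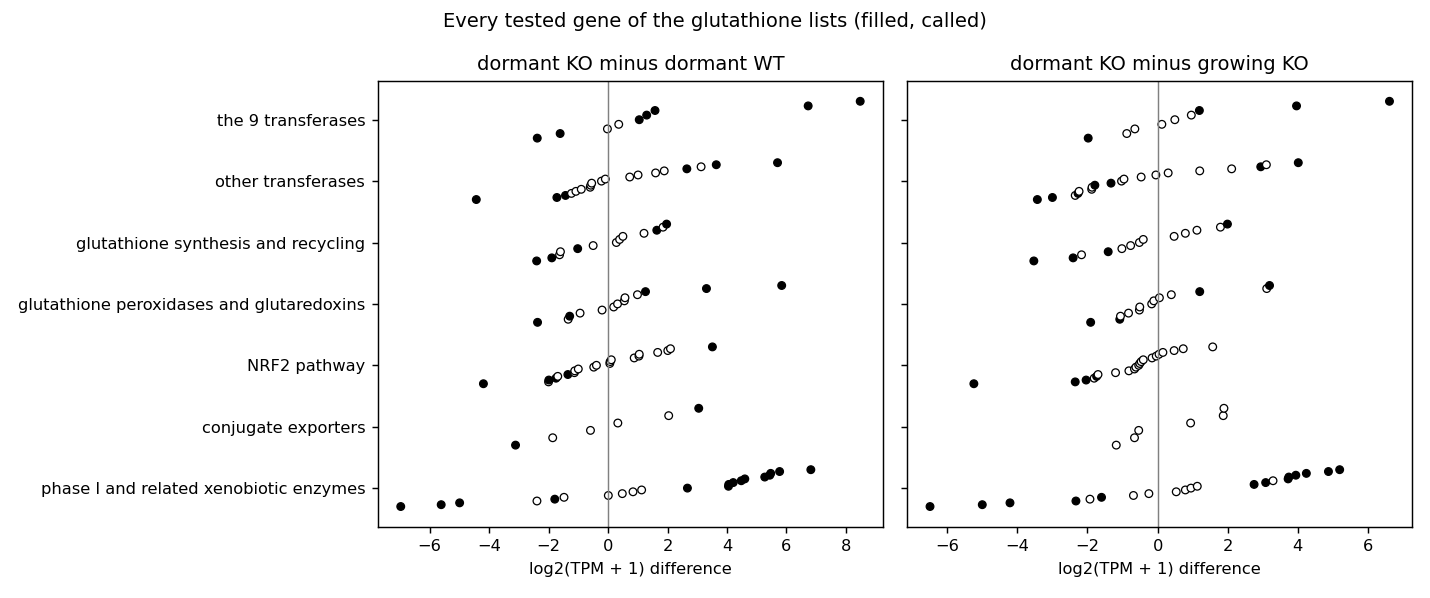
Log2(TPM + 1) difference (x axis) of every tested gene, 1 point each and filled where called, for the 9 transferases and each related list (y axis), between hosts in dormant cells and between states in KO hosts. Between hosts in dormant cells 5 points of the 9 genes are filled on the right of 0 and 2 on the left, and the phase I and related enzymes show 11 and 4.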

How the data were processed

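Poly(A) RNA of 12 sorted aliquots was profiled. According to the submitters' processing notes, the authors trimmed reads with cutadapt 1.18, aligned them to mm10 with STAR 2.5.2b and estimated expression with RSEM 1.3.3, where the study's methods name other versions of cutadapt and RSEM. The deposited table holds TPM, each column of which summed to 1000000 or 1000001, and not counts, so no count model was used. The protocol labels and the methods name different library kits. A further 30 columns of the table match none of the samples given and were not used.

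Values were analysed as log2(TPM + 1) with limma 3.58.1 in R 4.3.3 (trended empirical Bayes), in 1 fit of all 4 groups with 8 residual degrees of freedom and no covariate, since batch coincides with host. The script was tested on simulated data. The 9 genes, which are the first of 18 lists, the other related and marker lists and the tests were chosen with earlier results of these data known. Of 197 listed genes 194 were in the table. Every member is described, and from each related list up to 2 genes called higher and 2 called lower per pairwise comparison, those with the largest difference among genes whose libraries do not overlap. Alternatives were other pseudocounts, filters, scalings, array weights, a replicate block and leaving out each library. Gene positions and shared 50-base stretches came from GENCODE M21 on GRCm38, a later annotation than the study's, and upstream sequences from RefSeq on GRCm38.p6.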

Additional observations from a re-analysis of the deposited data

Results flagged for a closer look

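The host difference, as log2(TPM + 1), was not the same in dormant and growing cells for 5 of the 9 genes, by limma's interaction test (3 higher and 2 lower, beside 6.18% and 3.91% of all genes). It was larger in dormant cells by 4.61 for Gstt1 (8.48 against 3.87), by 1.34 for Mgst1 (1.3 against -0.04) and by 1.02 for Gstm1 (1.05 against 0.03). The value was -1.59 for Gsto1 (-1.61 against -0.02) and -1.28 for Mgst3 (-2.38 against -1.10). For Gstt1 the size rests on a group listed at 0, and the adjusted p was 0.0603 with a pseudocount of 0.1 and 0.061 with array weights. Gstm1 lost its call in 4 of 20 alternative settings by size (0.93 to 0.99), Gsto1 in 4 (-1.07, adjusted p = 0.115, under median-ratio scaling) and Mgst3 in 1 (-0.76, adjusted p = 0.0782, under that scaling), while Mgst1 kept it in all 20. All 5 use the dormant KO libraries, which also held the lung and blood cell markers described above, whose part was not tested.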

How the results depend on the processing

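In dormant cells, 6 of the 7 calls between hosts held in every alternative tried, which left out libraries of the groups compared, Gstm1 being the exception given above. Differences near 0 changed sign: Gstp1 between hosts in dormant cells came to 0.50 under median-ratio scaling (-0.11 to 0.07 leaving out 1 library), its interaction to 0.49 (-0.11 to 0.07), Mgst1 between hosts in growing cells ranged from -0.10 to 0.03 and Gstm2 between states in KO hosts from -0.01 to 0.24 leaving out 1 library. The members called between hosts in growing cells, 2 in all, fell to 0 to 1 when 1 growing library was left out.

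Counts over all genes moved more. Array weights changed 2898 calls between hosts in dormant cells to 1418, 127 in growing cells to 516, 977 between states in WT hosts to 310 and 2313 in KO hosts to 3586. Fitting the groups compared alone gave 1884, 365 and 3476 for the first, second and last of these. Without a filter the states in WT hosts gave 637. Between hosts in growing cells, leaving out a growing library gave 66 to 78 calls and leaving out a dormant one 108 to 163. Leaving out 1 library of any group gave 447 to 1918 between states in WT hosts (1918 without dormant WT replicate 1) and 861 to 1937 for the 1312 interactions (861 without dormant KO replicate 1). The share of calls that were higher was 57.9% between hosts in dormant cells, 74.0% under median-ratio scaling and 50.1% under quantile normalization. For states in KO hosts it was 46.7%, 69.2% and 56.9%, for the interaction 61.2%, 79.1% and 55.4%, and for states in WT hosts 24.6%, 29.1% and 50.6%. The mean summed TPM of the 9 genes became 3382.4 in dormant WT, 6429.9 in dormant KO, 4264.1 in growing WT and 4115.3 in growing KO cells under median-ratio scaling, and 5569.4 in dormant KO, 4990 in growing WT and 4675.5 in growing KO cells under quantile normalization. Apart from the effects of construction (fewer libraries, other genes tested), the cause was not tested.

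Replicate numbers did not pair the libraries, as deviations of same-numbered libraries correlated at -0.0147 to 0.0206 over 18 pairs. With a replicate block the members called stayed at 7, 2, 0, 4 and 5 in the comparisons in the order of the report, and all genes called were 2722, 86, 751, 2116 and 1048. Of 42 results for genes of the related lists, 21 kept their call in every alternative in which the gene was tested, 21 lost it at least once and 0 changed sign. Among those kept, Cyp2b10 was tested in 12 alternatives and not when a dormant KO library was left out. TPM keeps no depth, so what depth limits could not be measured, and genes listed at 0 may be below detection in 50 cells.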

Other observations

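As a description only, the genes most like the 3 most abundant transferases were found by Pearson's r of log2(TPM + 1) over the 12 libraries, points that share group, batch and library and are not independent. Nearest to Gstp1 were Cops3 (0.974), a subunit of the COP9 signalosome, Neil3 (0.969), a DNA glycosylase, and Hspe1 (0.969), the mitochondrial co-chaperonin. Hspe1 was at 418.16 to 644.29 TPM in dormant WT and 910.94 to 998.32 in growing WT cells, lower in the dormant state as Gstp1 was. Nearest to Mgst1 were Smim11 (0.980), Uqcrh (0.958), a subunit of respiratory complex III, and Myl6 (0.956), a myosin light chain. Nearest to Gstm1 were Plscr4 (0.948), Syf2 (0.936) and Cd79a (0.936), a B cell receptor component at 0 in dormant WT libraries and at 20.39 to 33.39 TPM in dormant KO libraries.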
